A study of Mus musculus with 12 samples.

Results

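The tumour necrosis factor (TNF) superfamily of ligands and receptors was followed through 12 RNA sequencing libraries of mouse splenic dendritic cells (DCs). Members were taken by gene symbol: every row of the count table whose GENCODE mouse symbol begins with Tnfsf or Tnfrsf and a digit, plus Tnf, Ltb, Ltbr, Fas, Fasl, Cd27, Cd70 and Ngfr. This gave 40 of the 57009 gene identifiers, made up of 15 ligands, 24 receptors and Tnfsf13os, an antisense RNA. A filter on low counts was passed by 35 of the 40, of which 14 were ligands and 21 receptors.

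All DCs came from spleens of C57BL/6 (B6) mice carrying B16 tumours engineered to release Flt3 ligand, which drives DC numbers up, and were taken at a tumour diameter of 1 cm. T, B and NK cells and macrophages had been depleted with beads, and after 3 h of culture the cells were sorted on CD11b and CD11c. In the AlloTem group the DCs were cultured with memory T cells of BALB/c origin that recognise alloantigen, and in the SynTem group with syngeneic B6 memory T cells. The LPS group was given lipopolysaccharide, a bacterial product sensed by a Toll-like receptor, and the DC only group was cultured alone. Each group had 3 libraries, and the labels do not say whether these were separate cultures or animals. The p-values therefore describe the spread of libraries, which may be partly technical. The labels used here give neither the age nor the number of the mice.

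TNF superfamily ligands are trimeric proteins, mostly held on the cell surface, and each engages 1 or a few receptors on a neighbouring cell. One branch, with TNF, Fas ligand and TRAIL, signals to receptors that can carry a death domain. Another branch delivers costimulation between DCs and T cells: on activated DCs 4-1BBL (Tnfsf9), OX40L (Tnfsf4), CD70 and TL1A (Tnfsf15), on T cells their receptors 4-1BB (Tnfrsf9), OX40 (Tnfrsf4), CD27 and DR3 (Tnfrsf25). Lymphotoxin, LIGHT, BAFF and APRIL serve lymphoid organisation and B cells. Because several members are T cell genes, transcripts of T cells were set beside some of them.

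Total counts ran from 13903574 to 21861156 per library. Of 14 DC markers, among them Itgax, Flt3 and Zbtb46, all were detected in every group. They summed to 10961 to 18244 CPM (counts scaled to library size) in AlloTem and 9952 to 14305 in SynTem. The sums were 12741 to 17358 in LPS and 12106 to 14539 in DC only. Cd74 and H2-Ab1 averaged 7188 and 3042 CPM in AlloTem, most of its mean sum of 14118 CPM. The sum therefore says little of the other markers, and detection alone does not establish DC identity. The sum of 22 T cell markers was 333, 203 and 175 CPM in AlloTem libraries 1 to 3, 321, 762 and 609 CPM in SynTem, 205, 129 and 83.9 CPM in LPS and 104, 119.5 and 77.98 CPM in DC only. It was thus highest in SynTem 2 and SynTem 3 and lay above every DC only library in all 6 libraries cultured with T cells. Cd3e, a T cell receptor component, was 6.55, 2.93 and 3.92 CPM in AlloTem, 10.7, 47.9 and 30.4 CPM in SynTem, at most 1.26 CPM in LPS and at most 0.245 CPM in DC only. In bulk RNA fewer cells of a type and less RNA per cell cannot be told apart. Libraries also differed in their batch number, 1 to 3, which equalled the replicate number: 4 Y-linked genes summed to 131 to 219.6 CPM in the 4 libraries of batch 3 and in SynTem 2, and to 0 to 10.3 CPM in the 7 others. Xist, a transcript of female cells, was 138 CPM in LPS 3 and 146 CPM in DC only 3. It was 610 and 1014 CPM in LPS 1 and 2, and 828 and 886 CPM in DC only 1 and 2. The spread of libraries within a group thus includes a difference in the sex of the cells. DC only 1 and DC only 2 were the closest replicates, still differed by 5.82 times sampling noise (chi-square per degree of freedom) and were counted as 2 samples.

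Promoter windows from RefSeq (build GRCm38.p6, 250 bases before to 50 after the start) were matched by symbol for 31 of the 40 members. They are printed for the receptors that passed a test, Tnfrsf4 (chr4:156013445-156013744, plus strand) and Cd27 (chr6:125236978-125237277, minus strand), for Tnfrsf13b (chr11:61126505-61126804, plus strand), whose AlloTem libraries stood above those of all other groups, and for the founding ligand Tnf (chr17:35201958-35202257, minus strand). Capitals mark matches, on either strand, to a form of the NF-kB site (GGG, any 2 bases, TT, any base, CC) or to the TATA box, TATAAA. No match of one overlapped a match of the other in these windows.
Tnfrsf4: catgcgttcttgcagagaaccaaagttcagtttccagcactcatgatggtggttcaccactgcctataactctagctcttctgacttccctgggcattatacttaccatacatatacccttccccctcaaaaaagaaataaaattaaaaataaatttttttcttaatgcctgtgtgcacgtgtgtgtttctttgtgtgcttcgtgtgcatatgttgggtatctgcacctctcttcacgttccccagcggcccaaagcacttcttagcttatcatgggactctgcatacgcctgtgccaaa
Cd27: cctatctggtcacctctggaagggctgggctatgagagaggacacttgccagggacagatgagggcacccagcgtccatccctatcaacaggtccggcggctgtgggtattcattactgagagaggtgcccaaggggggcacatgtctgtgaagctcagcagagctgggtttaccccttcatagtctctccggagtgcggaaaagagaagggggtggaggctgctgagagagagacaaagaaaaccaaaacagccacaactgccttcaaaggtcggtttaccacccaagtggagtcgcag
Tnfrsf13b: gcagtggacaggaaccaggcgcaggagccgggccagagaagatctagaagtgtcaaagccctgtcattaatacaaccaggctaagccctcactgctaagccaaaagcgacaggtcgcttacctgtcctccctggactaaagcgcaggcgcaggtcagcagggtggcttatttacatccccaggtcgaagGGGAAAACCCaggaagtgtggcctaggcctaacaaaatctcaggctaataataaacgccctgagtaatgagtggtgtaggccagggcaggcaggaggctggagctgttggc
Tnf: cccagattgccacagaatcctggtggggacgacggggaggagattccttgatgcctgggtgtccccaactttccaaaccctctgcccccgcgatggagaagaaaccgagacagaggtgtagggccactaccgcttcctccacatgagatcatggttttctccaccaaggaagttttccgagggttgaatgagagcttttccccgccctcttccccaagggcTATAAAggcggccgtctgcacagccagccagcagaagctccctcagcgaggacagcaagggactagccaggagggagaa
The Tnfrsf13b window held 1 NF-kB form, read on the reverse strand, and the Tnf window held 1 TATA box. Windows of Tnfrsf4 and Cd27 held neither of these letter strings, and the RefSeq start of Tnfrsf4 lies upstream of its GENCODE start. Across members 4 of 35 windows (11.4%) held the NF-kB form, those of Ltb, Tnfrsf13b, Tnfrsf25 and Tnfrsf9, against 4.79% of all 32851 windows of this length. The TATA box was in 5 of 35 (14.3%) and in 13.6% of all windows. These are matches of letters in one window, not sites shown to be bound.

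TNF receptors and 2 ligands dominated the family in these DCs. Levels of different genes are given as CPM per kilobase of merged exons, averaged over the 12 libraries. Tnfrsf1b, the TNF receptor without a death domain, was highest at 111 CPM per kb, followed by Tnfsf9 at 88.1, the death-domain receptor Tnfrsf1a at 76.02 and Tnf at 68.5. Ltb, the membrane chain of lymphotoxin, and its receptor Ltbr came next at 32.5 and 30.2 CPM per kb. The ranges over libraries of the first 4 overlapped, so their order is not firm. Tnfrsf13b (TACI), a receptor for BAFF and APRIL known from B cells, followed at 21.6. No other member exceeded the 12.6 CPM per kb of Tnfrsf14 (HVEM), a receptor for LIGHT.

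Ligands and receptors of a pair often stood at unlike levels. Tnfsf9 exceeded its receptor Tnfrsf9 (4-1BB), which averaged 4.74 CPM per kb, and their ranges over the 12 libraries did not overlap. Tnfsf15 at 3.56 CPM per kb exceeded its receptor Tnfrsf25 at 0.424, and Cd27 at 4.92 exceeded its ligand Cd70 at 1.26, in each case with no overlap of the ranges. BAFF (Tnfsf13b, 0.179 CPM per kb) lay below its receptors Tnfrsf13b and Tnfrsf13c (4.19 CPM per kb). RANKL (Tnfsf11, 0.562 CPM per kb) likewise lay below RANK (Tnfrsf11a, 3.05), a receptor carried by DCs, with no overlap of the ranges. Fas, at 11.2 CPM per kb, exceeded Fas ligand at 2.49 on average, with overlapping ranges. For TRAIL (Tnfsf10, 0.876 CPM per kb) the death receptor Tnfrsf10b (0.372) and the decoys Tnfrsf22 and Tnfrsf23 (0.749 and 0.685) were all low. Tnfrsf22, Tnfrsf23 and Tnfrsf26 are neighbouring paralogues on chromosome 7, so reads may have been split between them.

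**Figure D1:**
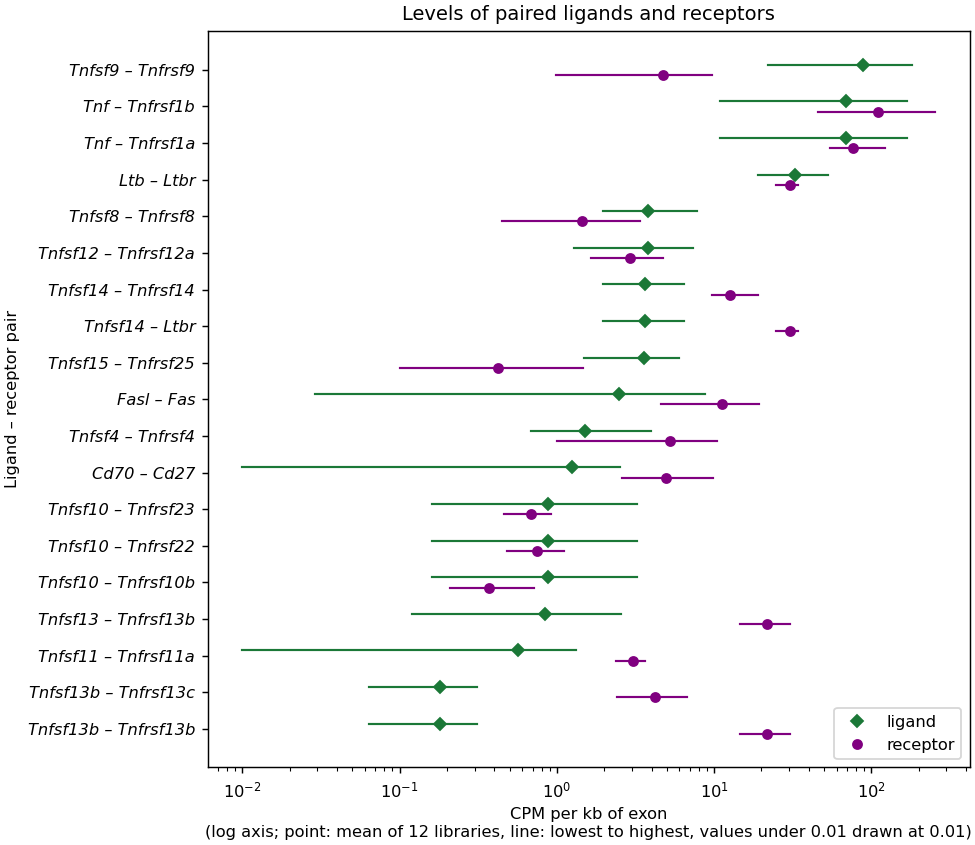
Levels of 19 ligand and receptor pairs in CPM per kilobase of exon on a log axis, with the mean of the 12 libraries as a point (diamonds for ligands, circles for receptors) and the lowest to highest library as a line. Tnfsf9, Tnf, Ltb and their receptors Tnfrsf1a, Tnfrsf1b and Ltbr lie to the right, and Tnfsf13b lies far to the left of its receptors Tnfrsf13b and Tnfrsf13c.

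The central comparison of the series asked how DCs meeting alloreactive memory T cells differ from DCs meeting syngeneic ones. No TNF superfamily member passed over all genes in AlloTem against SynTem (quasi-likelihood test of edgeR, p adjusted by Benjamini-Hochberg, under 0.05 for 0 of 35 members and 0.167% of the 14413 genes tested), while DESeq2 called 4, Tnfrsf25, Tnfsf8, Cd27 and Tnfsf10. At an unadjusted p under 0.05 there were 11 members: 9 were lower in AlloTem, 25.7% of the 35 against 3.91% of all genes, and 2 were higher, 5.71% against 5.68%. All 11 except Tnfrsf26 had the same sign within each of the 3 batches. The same libraries gave the p-values, and groups without overlap must agree in every batch, so this is no separate support. The 3 AlloTem libraries lay wholly under the 3 SynTem libraries for 6 members (17.1%, against 5.94% of all genes) and wholly above them for 2 (5.71%, against 7.09%), Tnfrsf13b and Tnfsf13b. The median log2 change was 0.30 over the 14 ligands and -0.29 over the 21 receptors, beside -0.01 over all genes. T cells of AlloTem and SynTem came from different strains, so strain and recognition cannot be told apart.

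The lower member with the smallest p was Tnfsf8 (CD30 ligand), at 7.46, 10.1 and 11.5 CPM in AlloTem libraries 1 to 3 and 15.5, 29.5 and 24.3 CPM in SynTem. Every AlloTem library lay under every SynTem library, and also under every DC only library (14.8, 14.7 and 16.8 CPM). The log2 change was -1.25 ± 0.25 (SE, edgeR adjusted p = 0.0921), with ratios within batches 1 to 3 of -1.0, -1.50 and -1.05. SynTem 2 had a Y-linked sum of 175 CPM and AlloTem 2 one of 0 CPM, so whether these libraries pair is uncertain. With the batch as a block, and so with that pairing, Tnfsf8 passed (edgeR adjusted p = 0.0149). Its receptor Tnfrsf8 (CD30), a receptor of activated lymphocytes, was 7.46, 1.54 and 2.45 CPM in AlloTem and 7.66, 11.7 and 10.4 CPM in SynTem, with no overlap (log2 change -1.38 ± 0.55, edgeR adjusted p = 0.458). AlloTem 1 was close to SynTem 1, and the other AlloTem libraries were far below. LPS libraries had 5.66, 3.38 and 2.02 CPM of Tnfrsf8.

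Cd27, a receptor that T cells carry before and after activation, was 11.4, 9.82 and 11.3 CPM in AlloTem and 14.9, 22.8 and 21.2 CPM in SynTem. The groups did not overlap (log2 -0.85 ± 0.19, edgeR adjusted p = 0.115). Tnfrsf25 (DR3), a T cell receptor for TL1A, was 0.427, 0.744 and 0.472 CPM in AlloTem and 1.64, 2.53 and 3.32 CPM in SynTem, again without overlap (log2 -2.18 ± 0.54, edgeR adjusted p = 0.159). Tnfsf10 (TRAIL), a death ligand that interferon induces, was 2.18, 2.88 and 2.03 CPM in AlloTem and 3.42, 15.6 and 16.96 CPM in SynTem, without overlap (log2 change -2.34 ± 0.61, edgeR adjusted p = 0.179). SynTem 2 and SynTem 3 were the high libraries, and these were also the ones with the largest sum of T cell markers. Of the 22 T cell markers 21 had a negative log2 change in this comparison, with a median of -1.60, and their part in these differences was not tested. Without T cells Tnfrsf25 was 0.314, 0.653 and 0.28 CPM in LPS and 0.25, 0.228 and 0.735 CPM in DC only, and Tnfsf10 was 1.13, 2.26 and 0.84 CPM in LPS and 3.38, 3.6 and 1.13 CPM in DC only. SynTem 1 thus lay inside the DC only range for Tnfsf10, but above it for Tnfrsf25.

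Other lower members were Tnfrsf13c (BAFF receptor, of B cells) at 5.51, 4.96 and 6.04 CPM in AlloTem and 8.03, 11.7 and 10.4 CPM in SynTem, without overlap (log2 -0.87 ± 0.25, edgeR adjusted p = 0.24). In LPS it was 6.66, 7.66 and 10.98 CPM, above AlloTem as well. The 8 B and plasma cell markers summed to 63.7, 46.5 and 26.8 CPM in AlloTem and 38.2, 22.4 and 75.8 CPM in SynTem, so the sums overlapped. Jchain, the largest part of the sum, averaged 19.7 ± 16.9 CPM in AlloTem and 29.6 ± 25.5 CPM in SynTem (SD). The other tested markers, Cd79a, Cd79b, Fcrla, Ms4a1, Mzb1 and Pax5, all averaged higher in AlloTem, with Cd79a and Pax5 under 1 CPM. The part of B cells in the level of Tnfrsf13c was not tested. Ltb was 45.9, 61.4 and 28.99 CPM in AlloTem and 53.3, 80.2 and 74.8 CPM in SynTem, with AlloTem 2 inside the SynTem range (log2 change -0.61 ± 0.27, edgeR adjusted p = 0.508). Tnfrsf26, a mouse decoy-type receptor, was 3.94, 1.54 and 2.45 CPM in AlloTem and 3.27, 7.16 and 7.35 CPM in SynTem. It was not lower within batch 1, where the log2 ratio was 0.24, and was 2.39, 1.9 and 2.46 CPM in LPS and 2.25, 2.51 and 2.55 CPM in DC only. Tnfsf13 (APRIL) was 1.66, 0.347 and 0.661 CPM in AlloTem and 4.16, 1.39 and 3.02 CPM in SynTem, with overlap, beside 0.503, 1.07 and 0.616 CPM in LPS and 1.38, 1.48 and 0.196 CPM in DC only. Part of the exons of Tnfsf13 (60% of bases) and of Tnfsf12 (48.3%) is shared with the read-through gene Tnfsfm13, which held 544 counts in all, so the counting may have split reads between them.

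Tnfrsf13b and Tnfsf9 were the higher members. Tnfrsf13b (TACI) was 78.8, 76.4 and 85.7 CPM in AlloTem and 46.9, 60.2 and 62.7 CPM in SynTem. Each AlloTem library lay above each library of the 3 other groups, with 52.2, 41.1 and 59.7 CPM in LPS and 55.96, 55.3 and 61.5 CPM in DC only. The log2 change was 0.50 ± 0.14 against SynTem, 0.65 ± 0.14 against LPS and 0.48 ± 0.14 against DC only (edgeR adjusted p = 0.23, 0.0874 and 0.156); these comparisons share the AlloTem libraries. Against LPS it passed with the batch as a block (edgeR adjusted p = 0.0349). Cd79b, a B cell receptor component, averaged 16.2 ± 4.1 CPM in AlloTem, 9.2 ± 1.48 CPM in SynTem, 10.9 ± 0.631 CPM in LPS and 9.98 ± 1.08 CPM in DC only (SD, n = 3 each). The sum of all 8 B and plasma cell markers overlapped between AlloTem and SynTem. Its largest part was Jchain, lower on average in AlloTem than in SynTem, while the other tested markers averaged higher in AlloTem. The 6 plasmacytoid DC markers summed to 271 to 421 CPM in AlloTem, 174 to 209 CPM in SynTem, 221 to 332 CPM in LPS and 203 to 437 CPM in DC only. The part of either cell type in the level of Tnfrsf13b was not tested. Tnfsf9 (4-1BBL), the ligand that costimulates T cells through 4-1BB, was 106, 118 and 58.1 CPM in AlloTem and 72.3, 30.9 and 28.4 CPM in SynTem. AlloTem 3 fell inside the SynTem range, and the log2 change was 1.11 ± 0.43 (edgeR adjusted p = 0.451). Some exon bases of Tnfsf9 (14.9%) overlap Gm11110, which lies on the opposite strand, so without a known strand setting reads of the pair cannot be told apart. Gm11110 averaged 3.49 CPM.

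**Figure D2:**
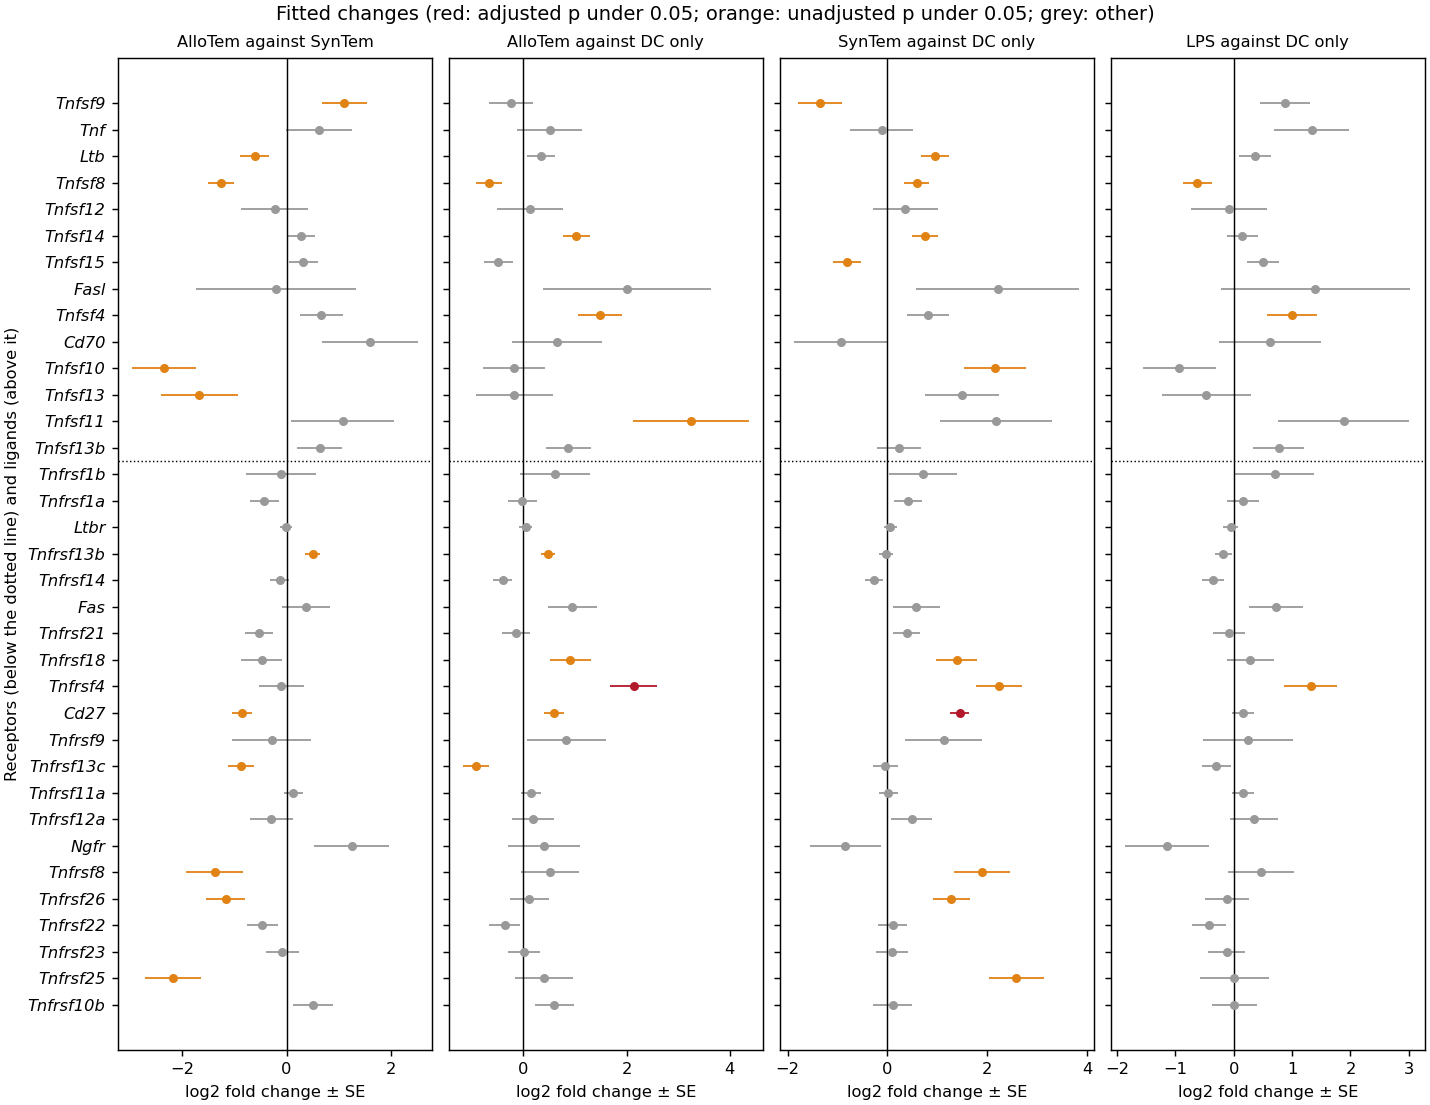
Fitted log2 fold changes with their standard errors for the 35 members that passed the low-count filter, ligands above and receptors below a dotted line, in 4 comparisons. Red marks the 2 calls at an adjusted p under 0.05, Tnfrsf4 in AlloTem against DC only and Cd27 in SynTem against DC only, orange an unadjusted p under 0.05, and grey all others.

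Against DCs cultured alone, OX40 (Tnfrsf4) was the 1 member that edgeR called in DCs cultured with alloreactive T cells. DESeq2 called 5: Tnfrsf4, Tnfsf14, Tnfsf4, Tnfrsf13b and Tnfrsf13c, the last lower in AlloTem. Tnfrsf4 (chr4:156013843-156016612, GRCm38), a costimulatory receptor known from activated T cells, was 14.2, 10.1 and 5.67 CPM in AlloTem and 2.63, 1.37 and 2.79 CPM in DC only. Every AlloTem library exceeded every DC only library: the means were 9.99 ± 4.29 and 2.26 ± 0.778 CPM in AlloTem and DC only (SD, n = 3 each), a 4.4-fold rise (log2 2.14 ± 0.46, edgeR adjusted p = 0.0444). Within batches the log2 ratios were 2.24, 2.5 and 0.91. The rise did not pass without AlloTem 1, AlloTem 2, DC only 1, DC only 2 or DC only 3 (edgeR adjusted p = 0.131, 0.129, 0.161, 0.194 and 0.0908), nor with limma voom (0.102) or with the 6 libraries alone (0.0965). It was the 1 call among 35 members (2.86%), beside 1.76% of all genes. Without AlloTem 3 it still passed. Every T cell marker also had a positive log2 change in this comparison, among them Icos, Cd3e and Trac (edgeR adjusted p = 0.0191, 0.024 and 0.0278). The part of T cell RNA in the rise of Tnfrsf4 was not tested.

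Tnfrsf4 was also above DC only in LPS, where no T cells were added. These cultures still held T cell transcripts, with marker sums of 205, 129 and 83.9 CPM in LPS and 104, 119.5 and 77.98 CPM in DC only. In LPS it was 9.24, 4.87 and 2.97 CPM, all above DC only (log2 1.32 ± 0.45, edgeR adjusted p = 0.999). LPS 3 exceeded the highest DC only library by little, and LPS 1, which also had the largest T cell marker sum of its group, was highest. In SynTem it was 9.22, 12.2 and 10.7 CPM (log2 2.24 ± 0.46 against DC only, edgeR adjusted p = 0.12). The AlloTem and SynTem ranges overlapped. The fitted AlloTem against SynTem difference was -0.10 ± 0.43 on the log2 scale.

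Its ligand Tnfsf4 (OX40L), which activated DCs display, was 2.42, 7.29 and 2.69 CPM in AlloTem, 2.38, 3.1 and 2.31 CPM in SynTem, 2.32, 3.44 and 3.14 CPM in LPS and 1.25, 1.26 and 1.91 CPM in DC only. All 9 libraries of AlloTem, SynTem and LPS lay above all 3 DC only libraries, and AlloTem 2 stood apart at the top. The log2 change against DC only was 1.48 ± 0.42 for AlloTem and 1.00 ± 0.42 for LPS (edgeR adjusted p = 0.139 and 0.999). Without AlloTem 2 the AlloTem change was 0.79 (edgeR adjusted p = 0.46). Both partners of the OX40 pair were therefore above DC only in AlloTem, SynTem and LPS, while the receptor alone passed by edgeR, and that in AlloTem. AlloTem, SynTem and LPS were each set against the same DC only libraries.

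At an unadjusted p under 0.05, 7 members were higher in AlloTem than in DC only (20% of 35, against 7.55% of all genes) and 2 were lower (5.71%, against 5.19%). AlloTem lay wholly above DC only for the same 7 (20%, against 9.35%) and wholly under it for 4 (11.4%, against 7.82%), Tnfrsf13c, Tnfsf8, Tnfrsf14 and Tnfrsf22. All 9 with an unadjusted p under 0.05 had the same sign in each batch, which again is no separate support. Tnfsf14 (LIGHT), a ligand of activated T cells and DCs, was 8.55, 11.9 and 7.7 CPM in AlloTem and 4.76, 4.06 and 5.0 CPM in DC only, without overlap (log2 1.02 ± 0.26, edgeR adjusted p = 0.094). In SynTem it was 6.76, 7.16 and 9.25 CPM and in LPS 6.91, 3.62 and 4.76 CPM, so the LPS range overlapped both SynTem and DC only. Tnfsf11 (RANKL), a survival factor that T cells supply to DCs, was 2.09, 2.98 and 2.64 CPM in AlloTem and 0.125, 0 and 0.637 CPM in DC only, where DC only 2 had no count (log2 3.25 ± 1.12, edgeR adjusted p = 0.23). SynTem libraries had 0.149, 2.41 and 1.07 CPM and overlapped DC only, as did LPS with 0.754, 2.02 and 0.224 CPM.

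Tnfrsf18 (GITR), a receptor of regulatory and activated T cells, was 11.2, 10.97 and 8.4 CPM in AlloTem, 7.21, 17.7 and 17.5 CPM in SynTem, 7.48, 8.84 and 3.47 CPM in LPS and 5.45, 6.91 and 3.92 CPM in DC only. Both T cell groups lay above DC only throughout, with the highest values in SynTem 2 and SynTem 3, the libraries with most T cell marker RNA. The log2 change was 0.91 ± 0.40 for AlloTem and 1.38 ± 0.40 for SynTem (edgeR adjusted p = 0.376 and 0.287). An antisense gene, Gm16008, covers 27.2% of its exon bases and held 31 counts in all. Tnfrsf13c went the other way, at a log2 change of -0.91 ± 0.25 in AlloTem against DC only (DC only 8.39, 9.02 and 13.7 CPM, edgeR adjusted p = 0.122). With the batch as a block that difference passed (edgeR adjusted p = 0.0413). The B cell marker sum in DC only was 25.04, 28.7 and 22.04 CPM, lower than in AlloTem 1 and AlloTem 2.

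Cd27 was the 1 member that edgeR called in DCs cultured with syngeneic T cells. DESeq2 called 6, all higher in SynTem: Cd27, Tnfrsf4, Tnfrsf25, Tnfsf10, Tnfrsf8 and Tnfrsf18. Cd27 (chr6:125232622-125237010, GRCm38) was 14.9, 22.8 and 21.2 CPM in SynTem and 7.39, 6.0 and 8.18 CPM in DC only. The groups lay far apart, with means of 19.6 ± 4.15 and 7.19 ± 1.11 CPM in SynTem and DC only (SD, n = 3 each), a 2.73-fold rise (log2 1.45 ± 0.19, edgeR adjusted p = 0.0212). Ratios within batches were 0.97, 1.84 and 1.32 on the log2 scale. The call was lost without SynTem 2, SynTem 3, DC only 1 or DC only 2 (edgeR adjusted p = 0.104, 0.113, 0.18 and 0.134), with limma voom (0.0642) and with the 6 libraries alone (0.0855). It was 1 of 35 members (2.86%), beside 0.0902% of all genes, and it held without SynTem 1 or DC only 3. In AlloTem the Cd27 change against DC only was 0.60 ± 0.19 (edgeR adjusted p = 0.182). All 22 T cell markers had a positive log2 change in both comparisons, with medians of 1.88 for AlloTem and 3.38 for SynTem. The part of T cell RNA in the rise of Cd27 was not tested.

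In SynTem against DC only 10 members were higher at an unadjusted p under 0.05 (28.6% of 35, against 4.83% of all genes). SynTem lay wholly above DC only for 11 members (31.4%, against 7.42%) and wholly under it for 1, Tnfsf15 (2.86%, against 6.83%). Among them Tnfrsf25 had a log2 change of 2.58 ± 0.55, Tnfrsf8 of 1.90 ± 0.57 and Ltb of 0.95 ± 0.27 (edgeR adjusted p = 0.134, 0.299 and 0.283). DC only libraries had 0.25, 0.228 and 0.735 CPM of Tnfrsf25, 2.75, 3.48 and 1.76 CPM of Tnfrsf8 and 36.99, 33.9 and 36.98 CPM of Ltb, in each case under all SynTem libraries. The 2 lower ones (5.71%, against 3.41%) were ligands of DCs. Tnfsf9 was 72.3, 30.9 and 28.4 CPM in SynTem and 138, 136 and 60.6 CPM in DC only, with SynTem 1 above DC only 3 (log2 -1.35 ± 0.43, edgeR adjusted p = 0.36). Tnfsf15 (TL1A), the ligand of DR3, was 9.0, 8.17 and 4.98 CPM in SynTem and 15.1, 13.7 and 9.89 CPM in DC only, without overlap (log2 -0.81 ± 0.28, edgeR adjusted p = 0.425). The 12 with an unadjusted p under 0.05 had the same sign in each batch, no separate support here either. The TL1A pair thus had a lower ligand and a higher receptor in SynTem, neither of them past the threshold over all genes.

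**Figure D3:**
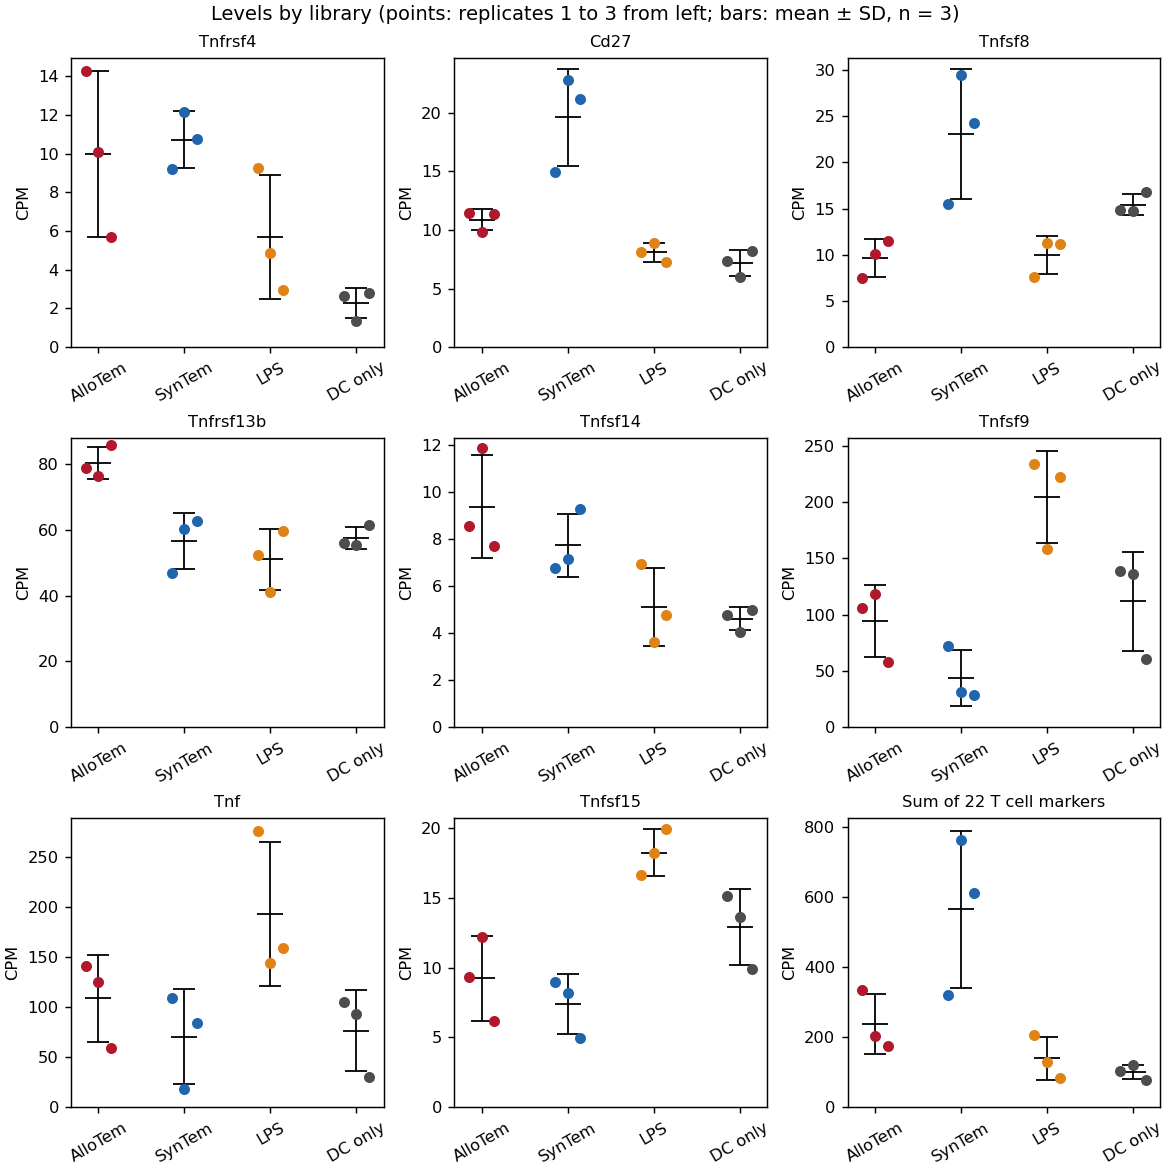
CPM of 8 members and of the summed 22 T cell markers in each library, by group, with replicates 1 to 3 from left to right and bars for the mean ± SD (n = 3). Cd27 and Tnfsf8 are highest in SynTem, where the T cell marker sum is also highest, Tnfrsf13b is highest in AlloTem, and Tnfsf9, Tnf and Tnfsf15 are highest in LPS.

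In LPS the members that stood wholly above DC only were mostly ligands, and none passed the test. By edgeR 0 of 35 members passed in LPS against DC only, and 0% of all genes did. At an unadjusted p under 0.05 Tnfrsf4 and Tnfsf4 were higher (5.71%, against 2.25%) and Tnfsf8 was lower (2.86%, against 1.44%), and DESeq2 and limma voom called 0. The groups did not overlap for 7 members that were higher in LPS, 20% of 35, against 5.36% of all genes, and for 1 that was lower, Tnfsf8 (2.86%, against 4.51%). The higher ones were Ltb, Tnf, Fas, Tnfsf4, Tnfrsf4, Tnfsf9 and Tnfsf15. Of the ligands 5 of 14 (35.7%) and of the receptors 2 of 21 (9.52%) were among them. The 6 neutrophil markers, all detected in both groups, summed to 201, 38.4 and 31.5 CPM in LPS and 12.9, 14.4 and 22.8 CPM in DC only, also without overlap. Their part in the levels of these members was not tested.

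Tnf, the founding cytokine of the family, was 276, 144 and 159 CPM in LPS and 105, 93.4 and 30.4 CPM in DC only. All LPS libraries exceeded all DC only libraries, by 2.53-fold in the fit (log2 1.34 ± 0.64, edgeR adjusted p = 0.999), and batch ratios were 1.38, 0.62 and 2.37. With T cells it was 142, 125 and 59.6 CPM in AlloTem and 109, 17.7 and 84.2 CPM in SynTem, both overlapping DC only. SynTem 2 was the lowest library of the 12. Tnfsf9 was 234, 158 and 222 CPM in LPS, above each DC only library (log2 0.87 ± 0.43, edgeR adjusted p = 0.999). Tnfsf15 was 16.6, 18.2 and 19.9 CPM in LPS and also lay above DC only, by 0.50 ± 0.28 on the log2 scale (edgeR adjusted p = 0.999).

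Fas, the death receptor for Fas ligand, was 30.9, 25.8 and 18.9 CPM in LPS and 18.1, 18.2 and 9.5 CPM in DC only. AlloTem (34.5, 39.9 and 14.1 CPM) and SynTem (27.8, 10.01 and 30.3 CPM) overlapped DC only, AlloTem 3 and SynTem 2 being low. Ltb was 37.1, 62.03 and 39.8 CPM in LPS, with LPS 1 barely above the highest DC only library. Tnfsf8 was the ligand that was lower, at 7.6, 11.2 and 11.1 CPM in LPS, under every DC only library (log2 -0.63 ± 0.25, edgeR adjusted p = 0.999). Its level in LPS was like that in AlloTem, and the AlloTem against DC only difference was -0.67 ± 0.25 (edgeR adjusted p = 0.268).

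Setting AlloTem beside LPS asked whether alloreactive T cells and a microbial stimulus left DCs alike. In AlloTem against LPS 0 of 35 members passed by edgeR, beside 0.451% of all genes, while DESeq2 called 1, Tnfrsf13b. At an unadjusted p under 0.05, 3 were higher (8.57%, against 4.27%) and 3 lower (8.57%, against 2.23%), all 6 with the same sign in each batch. That agreement comes from the libraries that gave the p-values and is no separate support. AlloTem lay wholly above LPS for 6 members (17.1%, against 5.52%) and wholly under it for 4 (11.4%, against 4.54%). The log2 change was -1.12 ± 0.43 for Tnfsf9, -0.98 ± 0.28 for Tnfsf15 and -0.62 ± 0.25 for Tnfrsf13c (edgeR adjusted p = 0.596, 0.245 and 0.655). AlloTem had 9.35, 12.2 and 6.14 CPM of Tnfsf15, all under the LPS libraries. Tnf was also under LPS in every AlloTem library, with a log2 change of -0.83 ± 0.63 (edgeR adjusted p = 1). Tnfsf14, Tnfrsf13b and Cd27 were higher in AlloTem without overlap, by 0.88 ± 0.26, 0.65 ± 0.14 and 0.43 ± 0.19 (edgeR adjusted p = 0.287, 0.0874 and 0.737). The sign of these differences thus put LIGHT, TACI and CD27 on the AlloTem side and 4-1BBL, TL1A and the BAFF receptor on the LPS side. T cell markers had a positive log2 change in 22 of 22 genes in this comparison, with a median of 1.31, and their part was not tested.

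**Figure D4:**
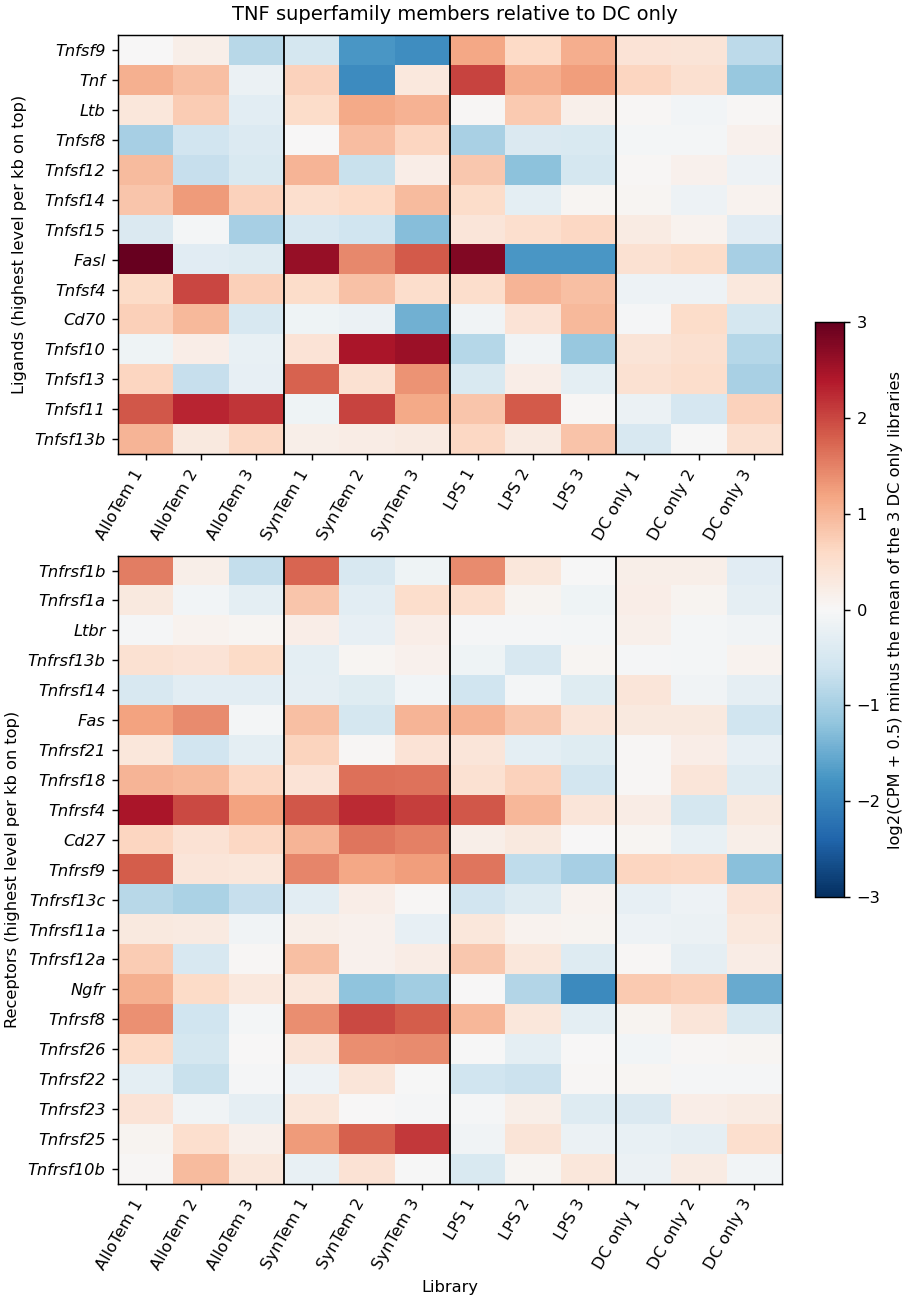
Levels of the 35 members in the 12 libraries as log2(CPM + 0.5) minus the mean of the 3 DC only libraries, ligands on top and receptors below, each ordered by level per kilobase; the colour scale ends at 3 in both directions. Tnfrsf4 is red in nearly all libraries of AlloTem, SynTem and LPS, and Tnfrsf25 and Tnfrsf8 are red in SynTem. Fasl, Tnfrsf1b and Tnfrsf9 are red in replicate 1 of AlloTem, SynTem and LPS, and Fasl and Tnfrsf9 also in the other SynTem libraries.

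Several members differed more between replicates than between groups. Tnfrsf1b was 832, 326 and 175 CPM in AlloTem, 968, 206 and 262 CPM in SynTem, 774, 364 and 285 CPM in LPS and 324, 325 and 226 CPM in DC only. Replicate 1 was far above the others in AlloTem, SynTem and LPS, but not in DC only. Fasl (chosen after its values were seen) was likewise highest in replicate 1 of those groups, at 16.95, 0.992 and 0.944 CPM in AlloTem, 11, 4.56 and 6.23 CPM in SynTem, 12.4, 0.0594 and 0.056 CPM in LPS and 2.07, 2.23 and 0.441 CPM in DC only. In the same replicate 1 libraries the sum of 6 natural killer cell markers was 511 CPM in AlloTem, 353 CPM in SynTem and 521 CPM in LPS, against 146 CPM in DC only. The other libraries of AlloTem, SynTem and LPS had sums of 8.51 to 93.8 CPM. Neutrophil markers summed to 161, 128 and 201 CPM in replicate 1 of AlloTem, SynTem and LPS, against 12.9 CPM in DC only 1. Macrophage and monocyte markers summed to 1135, 1240 and 971 CPM there, and to 949 CPM in DC only 1. SynTem 3 was also high in both, at 195 and 1114 CPM. T cell markers summed to 333 and 205 CPM in AlloTem 1 and LPS 1, the highest of their groups. SynTem 1 had the lowest such sum of its group, 321 CPM. The part of any of these cell types in the levels of Fasl and Tnfrsf1b was not tested. Tnfrsf9, the receptor for 4-1BBL (also chosen after its values were seen), was 26.4, 9.38 and 9.16 CPM in AlloTem, 20.6, 16.6 and 17.7 CPM in SynTem, 22.6, 3.98 and 3.3 CPM in LPS and 11.4, 11.1 and 2.69 CPM in DC only. SynTem lay wholly above DC only for both Fasl and Tnfrsf9. The log2 changes were 2.21 ± 1.64 and 1.12 ± 0.77 (edgeR adjusted p = 0.786 and 0.766). The part of these cell types in the level of Tnfrsf9 was not tested either.

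Other abundant receptors had an unadjusted p of at least 0.05 in all 5 comparisons. Tnfrsf1a was 216, 166 and 145 CPM in AlloTem, 315, 141 and 254 CPM in SynTem, 248, 186 and 161 CPM in LPS and 202, 185 and 146 CPM in DC only, with all groups overlapping. Ltbr, the lymphotoxin and LIGHT receptor, was between 58.7 and 80.9 CPM in all libraries, at 68.6, 76.1 and 73.5 CPM in AlloTem, 80.9, 58.7 and 80.5 CPM in SynTem, 67.99, 68.03 and 67.5 CPM in LPS and 78.5, 67.5 and 65.1 CPM in DC only. Tnfrsf21 (DR6), a death-domain receptor, was 39.6, 20.7 and 25.4 CPM in AlloTem, 50.1, 32.3 and 41.4 CPM in SynTem, 40.1, 25.3 and 24.4 CPM in LPS and 32.2, 35.8 and 26.5 CPM in DC only. It also overlapped between all groups, and its log2 change in AlloTem against SynTem was -0.53 ± 0.27 (edgeR adjusted p = 0.57), negative in each batch.

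The remaining members that passed the filter had an unadjusted p of at least 0.05 in all 5 comparisons. Tnfrsf14 ranged from 13.9 to 27.4 CPM over the 12 libraries, and RANK from 14.3 to 21.7 CPM. TWEAK (Tnfsf12) and its receptor Tnfrsf12a (Fn14) ranged from 1.96 to 11.2 and from 3.18 to 9.14 CPM. Ngfr, the neurotrophin receptor of the family, ranged from 1.29 to 13.5 CPM. Cd70, the ligand of CD27, stayed at or under 2.13 CPM and had no count in SynTem 3, while Tnfrsf10b, Tnfrsf22, Tnfrsf23 and Tnfsf13b reached at most 3.87, 4.69, 3.66 and 2.14 CPM. The 5 members that failed the filter were Tnfsf18 (GITR ligand) with 46 counts in all, Tnfrsf17 (BCMA) with 32, Tnfsf13os with 25, Tnfrsf11b (osteoprotegerin) with 24 and Tnfrsf19 (TROY) with 12. A count of 0 allows up to 0.142 to 0.223 CPM, depending on the library, from counting error alone (3 counts).

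Of the 40 members 22 lie in 9 groups of neighbours with gaps under 150 kb in GRCm38, and the values of some neighbours are set side by side here. On chromosome 17, Tnfsf9, Cd70 and Tnfsf14 span 88.9 kb. Their means were 94.2 ± 31.9, 1.44 ± 0.863 and 9.37 ± 2.2 CPM in AlloTem and 205 ± 40.8, 1.4 ± 0.692 and 5.1 ± 1.67 CPM in LPS (SD, n = 3 each), so that the first was higher in LPS and the last in AlloTem. Tnfsf8 and Tnfsf15 are adjacent on chromosome 4 within 134.3 kb: in LPS against DC only the log2 change was -0.63 ± 0.25 for Tnfsf8 and 0.50 ± 0.28 for Tnfsf15. Ltb and Tnf lie within 7.57 kb of chromosome 17. The AlloTem against SynTem change was -0.61 ± 0.27 for Ltb and 0.63 ± 0.63 for Tnf. Leaving out 1 library gave -0.90 to -0.36 for Ltb (lowest without AlloTem 2, highest without AlloTem 3) and 0.17 to 1.10 for Tnf (lowest without SynTem 2, highest without SynTem 1). Within batch 3 Tnf was lower in AlloTem, at a log2 ratio of -0.49, the same sign as Ltb. The receptors Tnfrsf4 and Tnfrsf18, within 15.1 kb of chromosome 4, were both above DC only in AlloTem and SynTem.

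Family genes outside the symbol rule were listed separately: CD40 and its ligand, lymphotoxin alpha, the ectodysplasin genes and Relt. Of these 7 genes 5 were tested, and 3 rose in AlloTem against DC only (60% of 5, beside 1.76% of all genes), Relt, Lta and Cd40lg (edgeR adjusted p = 0.0267, 0.0321 and 0.00562). Cd40lg (CD40 ligand), made by activated helper T cells, was 3.75, 4.27 and 2.03 CPM in AlloTem and 0.818, 0.697 and 0.889 CPM in SynTem, and had no count in any of the 6 libraries of LPS and DC only. Every AlloTem library was above every SynTem library (log2 change 2.05 ± 0.44, edgeR adjusted p = 0.167). Lta, the partner chain of Ltb, was 10.3, 17.9 and 3.07 CPM in AlloTem, 1.78, 3.17 and 2.61 CPM in SynTem and 1.88, 0.857 and 0.686 CPM in DC only. Relt, a widely expressed receptor of the family, averaged 56.4 ± 12.8 CPM in AlloTem and 31.1 ± 1.01 CPM in DC only (SD, n = 3 each). Cd40, the receptor through which helper T cells license DCs, was 156, 395 and 115 CPM in AlloTem, 71.6, 39.6 and 102 CPM in SynTem, 117, 184 and 136 CPM in LPS and 133, 113 and 50.1 CPM in DC only, and did not pass in any of the 5 comparisons. The 3 calls were not refitted without single libraries. Every T cell marker also had a positive log2 change in AlloTem against DC only, among them Icos and Cd3e (edgeR adjusted p = 0.0191 and 0.024). The part of T cell RNA in the rises of Relt, Lta and Cd40lg was not tested. Edar and Eda2r did not pass the filter, and Edar had no count in any library.

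Receptor-proximal signalling genes, a list of 19 with TRAF adaptors, RIPK1, caspase 8 and their regulators, had 0 calls in either direction in each of the 5 comparisons (edgeR). In AlloTem against SynTem 4 were higher (21.1% of 19, against 5.68% of all genes) and 0 lower (against 3.91%) at an unadjusted p under 0.05, with a list median of 0.17 on the log2 scale, beside -0.01 over all genes. Tnfaip3 (A20), the NF-kB feedback inhibitor, differed by 1.62 ± 0.44, the caspase 8 inhibitor Cflar by 1.06 ± 0.37, Traf6 by 0.63 ± 0.16 and Traf5 by 0.42 ± 0.16 (edgeR adjusted p = 0.2, 0.376, 0.161 and 0.451). Against DC only 5 were higher in AlloTem (26.3%, against 7.55% of all genes) and 1, the death adaptor Fadd, was lower (5.26%, against 5.19%) at that threshold. In LPS against DC only the count was 0 in both directions (against 2.25% higher and 1.44% lower). In SynTem against DC only Ripk1 was the 1 higher gene (5.26%, against 4.83%) and 0 were lower (against 3.41%).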

How the data were processed

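Gene expression was measured in 12 libraries of sorted mouse DCs. The authors deposited raw counts for 57009 Ensembl identifiers with no normalization, and a table with a batch number per library. Per the labels' protocols, TruSeq libraries were read single-end on a NextSeq. Per the submitters' processing notes the build was mm10. An aligner, counter or strand setting is not given in the sources used here. Gene symbols, coordinates and exon lengths came from GENCODE M21 (GRCm38) by identifier (52080 matched; the others held 0.754% of counts).

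From the deposited counts, genes passing filterByExpr (minimum count 10, minimum total 15; 14413 genes) were TMM-normalised, and all 12 libraries were fitted together, 1 mean per group, with edgeR 4.0.16 (R 4.3.3, robust quasi-likelihood). P-values were Benjamini-Hochberg adjusted over all genes of a comparison. Standard errors are the log2 change over the square root of F. Levels are CPM on the scaled library size; ratios within a batch had 0.5 CPM added. The code was tested on simulated counts. Intervals and floors cover counting error only.

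Values are printed by library for members called, with an unadjusted p under 0.05 in any comparison, or averaging at least 20 CPM; exceptions are named. Members, lists and this rule were chosen with earlier results of these data known. Alternatives were other scalings, filters, DESeq2 1.42.0, limma 3.58.1 voom, fewer libraries, a Y-linked covariate and the batch as a block. Replicate numbers were taken to pair libraries, since each equals the batch number in the deposited table. What that number stands for is not given. Deviations from group means had a median correlation of 0.25 over 18 same-number pairs (12 above 0.1) and -0.20 over others. All libraries but SynTem 2 and DC only 2 correlated best with their own number. SynTem 2 correlated at -0.095, -0.009 and -0.249 with AlloTem 2, LPS 2 and DC only 2. With AlloTem 3, LPS 3 and DC only 3 it correlated at 0.476, 0.451 and 0.388. The Y-linked sum was 175 CPM in SynTem 2 and 0 CPM in AlloTem 2, LPS 2 and DC only 2. Ratios within batches and fits with the batch as a block rest on this assumed pairing, which these values do not bear out for SynTem 2.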

Additional observations from a re-analysis of the deposited data

How the results depend on the processing

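Calls of members depended on tool and libraries. With DESeq2 the number called was 4 in AlloTem against SynTem, 5 in AlloTem against DC only, 6 in SynTem against DC only and 1 in AlloTem against LPS, where edgeR called 0, 1, 1 and 0. With limma voom, with only the 6 libraries compared, and with DC only 2 and SynTem 2 both left out, 0 were called in AlloTem and in SynTem against DC only. Leaving out 1 library gave 0 to 1 calls in AlloTem and in SynTem against DC only, and 0 in the 3 other comparisons. With the batch number as a replicate block, 1, 2 and 1 were called in AlloTem against SynTem, DC only and LPS, and no other count moved. With the Y-linked level as a covariate 3 were called in AlloTem against DC only and 1 in AlloTem against LPS. LPS against DC only kept 0 calls in all 16 alternatives. The causes were not tested.

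Over all genes AlloTem against SynTem had 24 calls, 318 with DESeq2, 78 under the block and 3 to 47 when 1 library was left out. Of 48 named log2 changes, 758 values under alternatives included 717 on the same side of the threshold with the same sign and 6 of opposite sign, all in uncalled values. Tnf in SynTem against DC only (-0.12) became 0.48 with the covariate, 0.51 without DC only 2 and SynTem 2, and -0.58 to 0.34 without 1 library (0.34, 0.18 and 0.05 without SynTem 2, DC only 1 and DC only 2). Tnfsf9 in AlloTem against DC only (-0.25) ran from -0.55 to 0.016 without 1 library, the highest without AlloTem 3. Members under about 1 CPM, such as Cd70 and Tnfrsf25, rest on few counts per library.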
